A study of Homo sapiens with 12 samples.

Results

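The miR-23, miR-24 and miR-27 precursors lie in a pair of paralogous clusters, MIR23A, MIR27A and MIR24-2 on chromosome 19 and MIR23B, MIR27B and MIR24-1 on chromosome 9. They were chosen by their GENCODE gene names and account for 6 of the 1881 miRNA precursor rows of the series. Small RNA of the human melanoma line A375 and of A375-BIR, a derivative selected in the BRAF inhibitor dabrafenib until it tolerated the drug, was sequenced after 48 h in 0.1% DMSO or in 200 nM dabrafenib. Each of the 4 combinations of line and treatment had 3 libraries, 12 in all, which the labels call biological replicates, and whether A375-BIR is a single clone was not given in the sources used here. The comparison of the lines asks which miRNAs differ between sensitive and resistant cells, and the comparison of the treatments asks which respond to the drug in each line.

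The members of each cluster are cut from a shared primary transcript and are then processed separately. miR-23 and miR-27 exist in an a and a b form that carry the same seed, the stretch of the mature miRNA that pairs with target mRNAs, while miR-24 has an identical mature form from both clusters. MYC is known to repress the miR-23 genes, and members of the clusters are known for roles in glutamine metabolism (miR-23), in adipocyte differentiation and lipid metabolism (miR-27) and in the cell cycle (miR-24).

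The mature sequences are shown because they decide which rows can be told apart. They were taken from RefSeq (GRCh38.p14), which held 2 mature sequences for each of the 6 members, and are written 5′ to 3′ with the seed (bases 2 to 8) in capitals.
miR-23a-3p: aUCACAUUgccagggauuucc
miR-23b-3p: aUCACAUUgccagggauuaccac
miR-27a-3p: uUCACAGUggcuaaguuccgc
miR-27b-3p: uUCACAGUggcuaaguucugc
miR-24-3p (MIR24-1 and MIR24-2): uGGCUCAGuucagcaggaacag
miR-24-1-5p: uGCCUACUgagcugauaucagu
miR-24-2-5p: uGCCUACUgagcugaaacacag
Counted from 1 at the 5′ end, miR-23a-3p and miR-23b-3p were identical over their first 18 bases and differed by U19A in the 21 bases they share, and miR-27a-3p and miR-27b-3p differed by C19U alone. The miR-23 seed was found in 3 of 2370 mature names (miR-23a, miR-23b and miR-23c), the miR-27 seed in 3 (miR-27a, miR-27b and miR-9985) and the miR-24 seed in 1. The 5p arms of the 2 miR-24 precursors differed at 6 positions (U16A, U18C, C19A, A20C, G21A and U22G), so only a read from the 5p arm could be assigned to one cluster.

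On hg38, MIR23A (73 bases, chr19:13836587-13836659), MIR27A (78 bases, chr19:13836440-13836517) and MIR24-2 (73 bases, chr19:13836287-13836359) lie on the minus strand inside an exon of the long non-coding RNA gene MIR23AHG. MIR23B (97 bases, chr9:95085208-95085304) and MIR27B (97 bases, chr9:95085445-95085541) are intronic on the plus strand in all 7 transcripts of the aminopeptidase gene AOPEP that span them. MIR24-1 (68 bases, chr9:95086021-95086088) is intronic in 6 of those transcripts and exonic in 1, and MIR3074 overlaps it on the opposite strand. The counting program RSEM could divide reads between a precursor, a near-identical copy and an overlapping host transcript, and the part this had in the counts was not tested. Since miR-24-3p is the same at both loci, counts listed for MIR24-2 may include reads that arose on chromosome 9, and MIR24-2 is read below as miR-24 of unknown origin.

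The libraries held between 35070 and 122792 expected counts, the fractional read counts of RSEM. Depth went with the treatment, at 77264 to 122792 in the DMSO libraries and 35070 to 59899 in the dabrafenib libraries, without overlap. The part of depth in the comparisons of the treatments was not tested. MIR24-1 was listed at 0 in all 12 libraries, where the limit of 3 counts lies between 24.4 and 85.5 CPM (counts scaled to the library total), a limit that covers counting error only. MIR3074 and MIR23C, which carries the miR-23 seed on chromosome X, were also at 0 in all 12. The other 5 members had counts in every library except MIR23B, which was at 0 in A375 in dabrafenib, replicate 3, and they made up between 0.3% and 0.86% of a library. They passed the filter on low counts, which kept 175 precursors.

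MIR27B and MIR24-2 held most of the members' counts. Of all member counts over the 12 libraries, MIR27B had 46.3%, MIR24-2 33.3%, MIR23A 10.5%, MIR27A 7.67% and MIR23B 2.28%. The make-up differed between groups: MIR24-2 had 40.9% ± 4.39 (SD, n = 3) of the member counts in A375-BIR in DMSO, 30.8% ± 5.47 in A375 in DMSO, 22.9% ± 6.13 in A375 in dabrafenib and 23.2% ± 4.07 in A375-BIR in dabrafenib. In the same order MIR27B had 39.6% ± 1.45, 48.0% ± 4.78, 54.6% ± 8.17 and 56.4% ± 7.23. MIR24-2 thus had its highest share in A375-BIR in DMSO, where its 3 libraries (36.0% to 44.4%) lay above those in dabrafenib (20.1% to 27.8%) but overlapped with A375 in DMSO (25.9% to 36.7%).

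**Figure D1:**
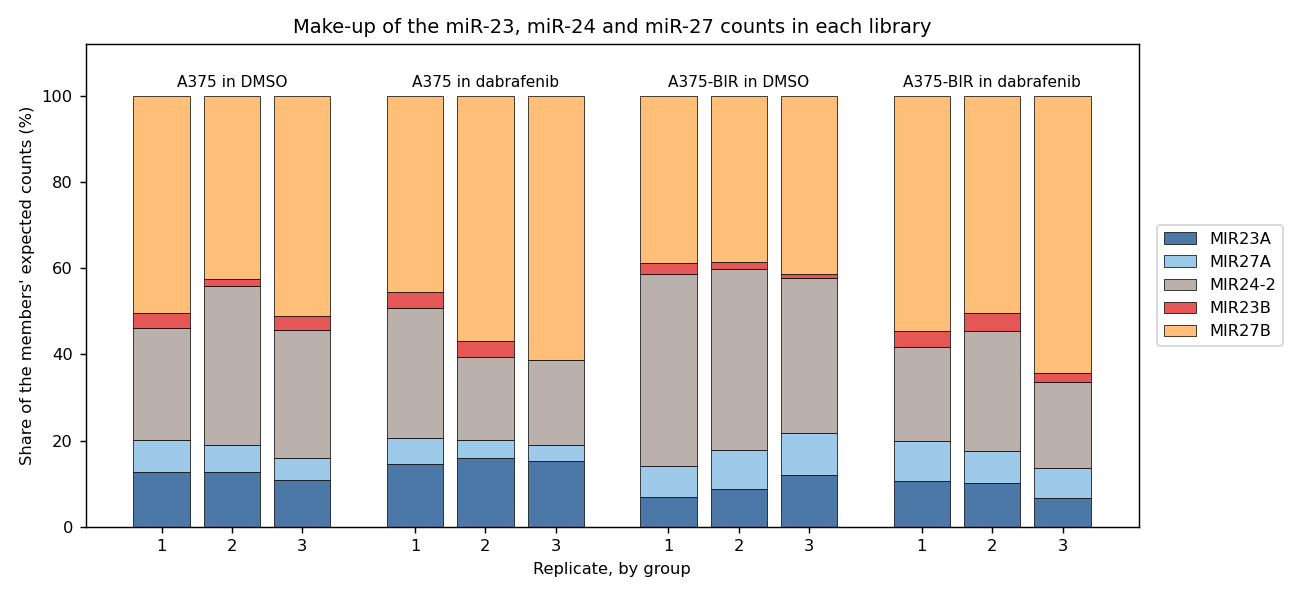
Share of each precursor in the summed expected counts of the members (%), 1 bar per library, grouped by line and treatment. MIR27B and MIR24-2 fill most of every bar, and the MIR24-2 part is 36.0% to 44.4% in A375-BIR in DMSO and 20.1% to 27.8% in A375-BIR in dabrafenib.

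Levels are given below in CPM scaled by trimmed mean of M values (TMM). How often groups did not overlap among all 175 tested precursors was not counted. Of these, 46.3% differed between the lines in DMSO and 46.3% in dabrafenib in the edgeR test given below. Groups without overlap are therefore a description of the members and are not read as particular to them. MIR27A was at 287, 250 and 199.7 CPM in A375 in DMSO and at 235, 197 and 133 CPM in A375 in dabrafenib. In A375-BIR it was at 426, 565 and 643 CPM in DMSO and at 682, 424 and 586 CPM in dabrafenib. All 6 A375 libraries were thus below all 6 A375-BIR libraries, while the treatments overlapped within each line. In A375 that overlap depends on the scaling. In CPM of the library total MIR27A was at 308, 271 and 219 in DMSO and at 189, 136 and 108 in dabrafenib, without overlap. In RSEM's counts the A375 libraries held 19 to 33 in DMSO and 4, 7 and 9 in dabrafenib, so the values in dabrafenib rest on few reads.

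MIR24-2 was at 969, 1426 and 1177 CPM in A375 in DMSO and at 1147, 874 and 730.2 CPM in A375 in dabrafenib. In A375-BIR it was at 2553, 2674 and 2385 CPM in DMSO and at 1583, 1604 and 1657 CPM in dabrafenib. The lines did not overlap in either treatment, and within A375-BIR the dabrafenib libraries were all below the DMSO libraries. MIR27B was at 1891, 1653 and 2007 CPM in A375 in DMSO and at 1719.9, 2564 and 2257 CPM in A375 in dabrafenib. In A375-BIR it was at 2236, 2455 and 2738 CPM in DMSO and at 3984, 2889.6 and 5336 CPM in dabrafenib. A375-BIR in dabrafenib was the highest group for MIR27B and had the widest spread, and A375 was below A375-BIR in each treatment with no overlap.

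MIR23A was at 479, 493 and 420.3 CPM in A375 in DMSO and at 547, 704.5 and 564 CPM in A375 in dabrafenib. In A375-BIR it was at 389, 557 and 795 CPM in DMSO and at 764, 590.0 and 546 CPM in dabrafenib. The lines overlapped in both treatments, and within A375 the 3 dabrafenib libraries were above the 3 DMSO libraries. Both depend on the scaling. In CPM of the library total the treatments overlapped in A375, at 511, 531 and 464 in DMSO and 442, 492 and 460 in dabrafenib. The latter were below A375-BIR in dabrafenib (808, 647 and 571) without overlap. MIR23B was low throughout, with expected counts of 10.5, 9 and 12 in A375 in DMSO, 5.5, 6 and 0 in A375 in dabrafenib, 16, 12 and 10.4 in A375-BIR in DMSO and 10, 16.25 and 8 in A375-BIR in dabrafenib. In CPM scaled by TMM, its 3 A375-BIR libraries in dabrafenib were all above those in DMSO, and the lines overlapped. In CPM of the library total the lines did not overlap in dabrafenib, at 115.8, 116.4 and 0 in A375 and 285, 271 and 168 in A375-BIR.

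**Figure D2:**
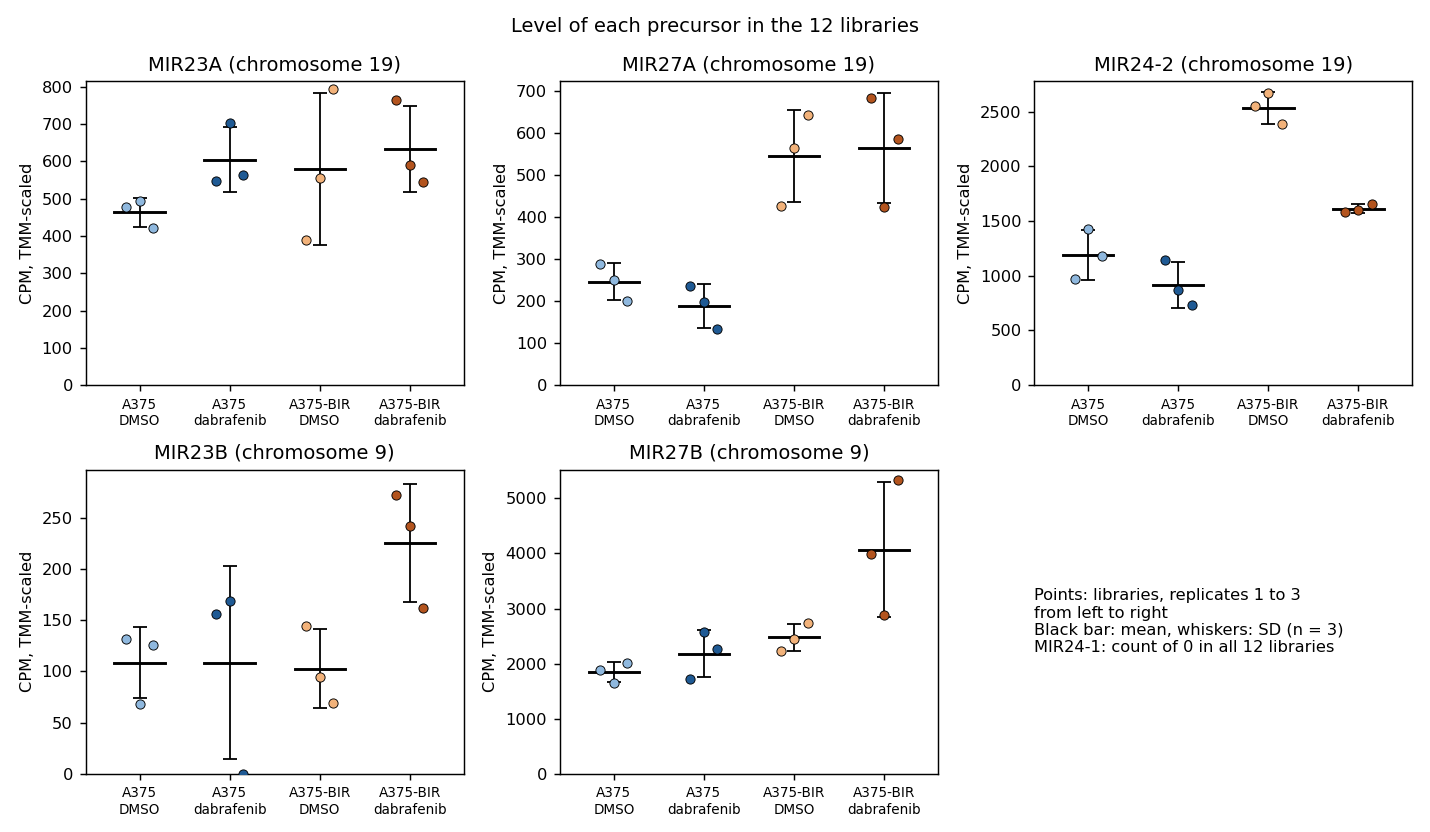
Level of the 5 precursors with counts (CPM scaled by TMM) by line and treatment. Points are libraries, black bars the mean and whiskers the SD of 3 libraries. For MIR27A, MIR24-2 and MIR27B the A375 libraries lie below the A375-BIR libraries of the same treatment, and for MIR23A and MIR23B the lines overlap.

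Between the lines over both treatments, 3 of the 5 tested members were lower in A375 and none was higher. Of all 175 tested precursors 60% differed in either direction and 34.3% were lower in A375, so the lines differ widely beyond the members. In the quasi-likelihood test of edgeR, with p adjusted after Benjamini and Hochberg over the 175 precursors (FDR), the log2 fold change of A375 over A375-BIR was -1.34 for MIR27A (SE 0.20, FDR = 5.58e-05). It was -0.95 for MIR24-2 (SE 0.14, FDR = 5.39e-05) and -0.66 for MIR27B (SE 0.16, FDR = 0.00273) in the same edgeR test. MIR23A (-0.19, SE 0.18) and MIR23B (-0.45, SE 0.41) did not pass it, with FDR values of 0.387 and 0.352. With each library left out MIR23A ran from -0.32 to -0.019, the latter without A375-BIR in DMSO replicate 3, and with total counts it had -0.44. The calls of MIR27A, MIR24-2 and MIR27B were kept under each alternative run.

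In DMSO, 2 of 5 members were lower in A375, against 46.3% of all tested precursors in either direction and 30.3% in that direction. MIR27A had a log2 fold change of -1.15 (SE 0.24, FDR = 0.00124 by the edgeR test) and MIR24-2 of -1.08 (SE 0.19, FDR = 0.00032). MIR27B had -0.42 (SE 0.22, FDR = 0.133 by the edgeR test without a replicate block), although its groups did not overlap. Same-numbered DMSO libraries of the lines deviated together weakly (r = 0.105, 0.217 and 0.303). A fit of those 6 libraries with the replicate number as a block was chosen after the data were seen. In it the edgeR FDR of MIR27B was 0.0325 at the same fold change of -0.42. Of the 23 alternatives 22 left MIR27B uncalled in DMSO. MIR23A had -0.33 (SE 0.24) and MIR23B 0.06 (SE 0.52). With each library left out MIR23A ran from -0.52 to -0.002, the latter without A375-BIR in DMSO replicate 3.

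In dabrafenib, 3 of 5 members were lower in A375, against 46.3% of all tested precursors in either direction and 22.3% in that direction. The log2 fold change was -1.52 for MIR27A (SE 0.32, FDR = 0.00154), -0.90 for MIR27B (SE 0.23, FDR = 0.00581) and -0.81 for MIR24-2 (SE 0.21, FDR = 0.00672), all by the edgeR test. MIR23A had -0.05 (SE 0.28) and MIR23B -0.96 (SE 0.63, FDR = 0.239 by the edgeR test). Without A375 in dabrafenib replicate 3, where its count was 0, MIR23B had -0.46 here and -0.197 in place of -0.45 over both treatments. The TMM factors were 0.694 to 0.823 in A375 in dabrafenib and 1.044 to 1.188 elsewhere, and when libraries were scaled by their totals the median over all tested precursors moved from -0.03 to -0.50. Relative to that median the value of MIR27A was -1.49 under either scaling, that of MIR27B -0.87 under both and that of MIR24-2 -0.78 under both. Such agreement follows from the calculation, since a change of scaling moves all precursors by about the same amount. It is no separate evidence for the members.

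Since the miR-24 copies cannot be told apart by their 3p arm, the clusters were also compared as sums: MIR23A with MIR27A for chromosome 19, MIR23B with MIR27B for chromosome 9, and MIR24-1 with MIR24-2 for miR-24. All 3 sums were lower in A375 over both treatments, in a table of 173 rows of which 59% were called in either direction and 32.9% were lower. By the edgeR test on that table the log2 fold change was -0.58 for miR-23a with miR-27a (SE 0.15, FDR = 0.00402), -0.63 for miR-23b with miR-27b (SE 0.16, FDR = 0.00446) and -0.90 for miR-24 (SE 0.16, FDR = 0.000255). MIR24-1 adds nothing to the miR-24 sum, and its value differs from that of MIR24-2 because the TMM factors were computed again on the table with sums, which moved them by -11.6% to 11.2%.

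In DMSO 2 of 3 sums were lower in A375, against 46.8% of the rows called in either direction and 27.7% lower. In the edgeR test miR-24 had a log2 fold change of -0.998 (SE 0.21, FDR = 0.00182), miR-23a with miR-27a -0.58 (SE 0.19, FDR = 0.0244) and miR-23b with miR-27b -0.32 (SE 0.22, FDR = 0.243). The call of miR-23a with miR-27a in DMSO was lost without A375 in DMSO replicate 3 (-0.59, FDR = 0.0838), without A375-BIR in DMSO replicate 2 (-0.55, FDR = 0.0617) and without A375-BIR in DMSO replicate 3 (-0.44, FDR = 0.082), all by edgeR. With DESeq2's Wald test its FDR was 0.102, with no filter 0.0632 and with DESeq2's size factors in edgeR 0.0592. In the blocked fit of the 6 DMSO libraries, chosen after the data were seen, miR-23b with miR-27b passed edgeR's threshold (-0.40, FDR = 0.04). Of the 23 alternatives 22 left that sum uncalled in DMSO.

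In dabrafenib all 3 sums were lower in A375, against 43.4% of the rows in either direction and 20.2% lower. In the edgeR test miR-23b with miR-27b had a log2 fold change of -0.94 (SE 0.23, FDR = 0.00545), miR-24 -0.81 (SE 0.24, FDR = 0.0136) and miR-23a with miR-27a -0.58 (SE 0.22, FDR = 0.0489). The last was just inside the threshold, and it lost the call in 14 of 22 alternatives. Over all 22 its edgeR or DESeq2 FDR ran from 0.00512 to 0.175. The libraries whose removal ended that call by edgeR were A375 in DMSO replicates 1 to 3 (FDR 0.083, 0.0848 and 0.0797), A375 in dabrafenib replicates 1 to 3 (0.137, 0.0757 and 0.175), A375-BIR in DMSO replicate 2 (0.0597) and A375-BIR in dabrafenib replicates 1 and 3 (0.122 and 0.116).

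**Figure D3:**
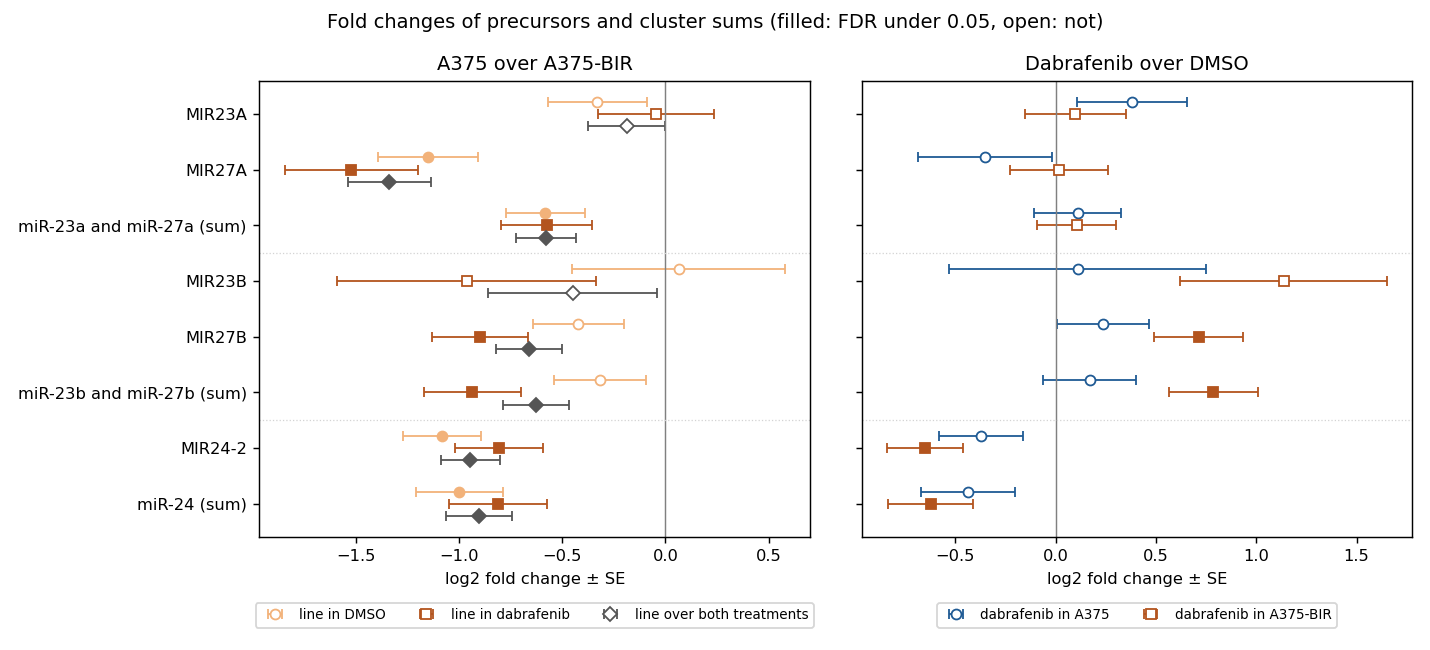
Log2 fold change with its SE for the 5 tested precursors and the 3 sums, on the left for A375 over A375-BIR and on the right for dabrafenib over DMSO. Filled symbols have an FDR under 0.05 in the edgeR test. In the comparisons of the lines each precursor and sum lies left of 0 except MIR23B in DMSO, and on the right the filled symbols are those of MIR27B, MIR24-2 and their sums in A375-BIR.

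In A375, dabrafenib changed none of the 5 members at an FDR under 0.05 by edgeR, where 25.1% of all tested precursors were called, and none of the 3 sums, where 26.6% of the rows were called. None had an unadjusted edgeR p under 0.05 either, and DESeq2 called 0 members and 0 sums, with 1 of each at an unadjusted p under 0.05. The log2 fold changes of dabrafenib over DMSO were -0.37 for MIR24-2 (SE 0.21), -0.35 for MIR27A (SE 0.33), 0.38 for MIR23A (SE 0.27), 0.24 for MIR27B (SE 0.23) and 0.11 for MIR23B (SE 0.64). The sums had -0.44 for miR-24 (SE 0.23), 0.11 for miR-23a with miR-27a (SE 0.22) and 0.17 for miR-23b with miR-27b (SE 0.23). With each library left out, MIR24-2 ran from -0.58 to -0.22, MIR27A from -0.55 to -0.18 and MIR27B from 0.10 to 0.38. The sums ran from -0.57 to -0.22 for miR-24, 0.072 to 0.25 for miR-23a with miR-27a and 0.077 to 0.35 for miR-23b with miR-27b. These values depend on the scaling: with total counts the median over all tested precursors moved from 0.13 to -0.37, MIR24-2 had -0.87 (FDR = 0.00624 by edgeR), and MIR23A (-0.125), MIR23B (-0.40), MIR27B (-0.27), miR-23a with miR-27a (-0.33) and miR-23b with miR-27b (-0.285) turned negative. It also passed the edgeR test with no filter (-0.80, FDR = 0.0341) and with a filter of 1 CPM in 3 libraries (-0.94, FDR = 0.00848). The miR-24 sum passed it under the same 3 settings (-0.87, -0.81 and -0.78, edgeR FDR = 0.00608, 0.0284 and 0.0261). MIR24-2 relative to the median of all tested precursors had -0.50 under TMM and under total counts, -0.80 with no filter and -0.68 with the filter of 1 CPM. With no filter the median, over 871 rows, was 0, so taking it off changes nothing there. The sign changes with total counts went with the shift of the median: relative to it MIR23A had 0.25 under both scalings, MIR23B -0.02 under both, MIR27B 0.11 and 0.10, and MIR27A -0.48 under both. That agreement between scalings again follows from the calculation. MIR27A itself had -0.85 with total counts, -0.91 with the filter of 1 CPM and -0.78 with no filter, and passed under none of them. Relative to the median it had -0.65 with the filter of 1 CPM and -0.78 with no filter.

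In A375-BIR, MIR27B was higher and MIR24-2 lower in dabrafenib, 2 of 5 members against 20.6% of all tested precursors, of which 13.1% were higher and 7.43% lower. The log2 fold change was 0.71 for MIR27B (SE 0.22, FDR = 0.034) and -0.65 for MIR24-2 (SE 0.19, FDR = 0.0279) by the edgeR test. MIR23B had 1.14 (SE 0.52, FDR = 0.136 by edgeR), MIR23A 0.10 (SE 0.25) and MIR27A 0.02 (SE 0.24). Of the sums 2 of 3 were called, where 24.9% of the rows were: miR-23b with miR-27b at 0.79 (SE 0.22, FDR = 0.0242) and miR-24 at -0.62 (SE 0.21, FDR = 0.047) by edgeR, while miR-23a with miR-27a had 0.10 (SE 0.20).

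Other settings and single libraries ended these calls in A375-BIR. The log2 fold change of MIR27B was 0.355 in place of 0.71 with a filter of 1 CPM (edgeR FDR = 0.39) and 0.39 with no filter (edgeR FDR = 0.457). MIR27B also missed the threshold, at values nearer 0.71, with the libraries compared only (0.81, edgeR FDR = 0.0864) and with DESeq2's Wald test (0.64, FDR = 0.0511). MIR24-2 missed it with the libraries compared only (-0.57, edgeR FDR = 0.0694), while with the filter of 1 CPM it had -1.01 (edgeR FDR = 0.002) and with no filter -0.98 (edgeR FDR = 0.00126). By edgeR, MIR27B lost its call without A375-BIR in dabrafenib replicate 3, the library at 5336 CPM (0.46, FDR = 0.159), or replicate 1 (0.725, FDR = 0.0609). It also did without A375-BIR in DMSO replicates 1 (0.72, FDR = 0.0954) and 2 (0.71, FDR = 0.0946) and without A375 in DMSO replicate 1 (0.71, FDR = 0.0507), which enters only through the shared spread and scaling. MIR24-2 lost its call by edgeR without A375-BIR in dabrafenib replicates 1 (-0.64, FDR = 0.0609) and 2 (-0.60, FDR = 0.132) and without A375-BIR in DMSO replicates 1 (-0.58, FDR = 0.0996) and 2 (-0.61, FDR = 0.0896).

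For the sum of miR-23b and miR-27b the value was 0.50 in place of 0.79 with a filter of 1 CPM (edgeR FDR = 0.128) and 0.41 with no filter (edgeR FDR = 0.385), and with the libraries compared only it was 0.83 (edgeR FDR = 0.0782). miR-24 missed the threshold without 4 rRNA-like precursors (-0.60, edgeR FDR = 0.0617) and with the libraries compared only (-0.57, edgeR FDR = 0.0712). The sum of miR-23b and miR-27b also lost its call by edgeR without A375-BIR in dabrafenib replicate 3 (0.44, FDR = 0.101) and in DMSO replicates 1 (0.76, FDR = 0.0628) and 2 (0.81, FDR = 0.0638). The sum for miR-24 lost it by edgeR without A375-BIR in dabrafenib replicates 1 (-0.55, FDR = 0.141) and 2 (-0.59, FDR = 0.13) and in DMSO replicates 1 (-0.59, FDR = 0.118) and 2 (-0.56, FDR = 0.136).

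The difference in dabrafenib response between the lines was tested directly, and edgeR called 0 of 5 members and 0 of 3 sums, with 3.43% of the precursors and 2.89% of the rows with sums called. No member or sum had an unadjusted p under 0.05 in edgeR or in DESeq2. The response of A375 minus that of A375-BIR was -0.48 for MIR27B (SE 0.32), -0.62 for miR-23b with miR-27b (SE 0.32), 0.28 for MIR24-2 (SE 0.28), 0.19 for miR-24 (SE 0.32), -0.37 for MIR27A (SE 0.41), 0.28 for MIR23A (SE 0.37), 0.0058 for miR-23a with miR-27a (SE 0.29) and -1.03 for MIR23B (SE 0.82). With each library left out in turn, MIR27B ran from -0.81 to -0.227, miR-23b with miR-27b from -0.83 to -0.27 (both nearest 0 without A375-BIR in dabrafenib replicate 3) and MIR24-2 from 0.016 (without A375 in dabrafenib replicate 1) to 0.43 (without A375 in DMSO replicate 2). In the same way MIR27A ran from -0.68 to -0.19 and miR-24 from 0.07 to 0.42, and MIR23B had -0.52 without A375 in dabrafenib replicate 3. With total counts the sign turned for MIR24-2 (-0.19), miR-24 (-0.19), MIR23A (-0.175) and miR-23a with miR-27a (-0.35). The median over all tested precursors moved from 0.17 to -0.30 there. Relative to that median MIR24-2 had 0.11 under both scalings, and MIR23A 0.11 and 0.12, an agreement that again follows from the calculation. The calls made in A375-BIR and not in A375 were therefore not shown to differ between the lines.

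Of the precursors, 17 have a stretch of at least 18 bases found in the 45S pre-rRNA. They took 3.22% to 5.59% of the counts of A375 in DMSO and 2.65% to 4.57% in A375-BIR in DMSO. They took 20.9% to 26.3% in A375 in dabrafenib and 14.4% to 16.9% in A375-BIR in dabrafenib, so they move with the treatment. In dabrafenib in A375-BIR, the calls of MIR27B and MIR24-2 by edgeR were kept without all 17, an alternative chosen after the data were seen. Without the 4 named beforehand, that of MIR24-2 was lost (-0.62, FDR = 0.0554 by edgeR).

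Ratios inside a library do not depend on its scaling, and 4 were compared by line and by treatment with exact two-sided permutation tests within strata (400 arrangements, smallest p 0.005, a pseudocount of 0.5, Benjamini-Hochberg adjustment over the 8 tests). The clearest difference was within the chromosome 19 cluster. The log2 ratio of MIR27A to MIR23A was -0.72, -0.96 and -1.07 in A375 in DMSO and -1.18, -1.78 and -1.96 in A375 in dabrafenib. In A375-BIR it was 0.10, 0.02 and -0.30 in DMSO and -0.18, -0.46 and 0.07 in dabrafenib. All 6 A375 libraries thus held less MIR27A relative to MIR23A than any of the 6 A375-BIR libraries. The difference of A375 from A375-BIR was -1.15 (exact permutation p = 0.005, the smallest possible, adjusted p = 0.04), with -0.85 in DMSO and -1.45 in dabrafenib, and with each library left out it stayed between -1.27 and -1.07. With same-numbered libraries taken as 6 pairs the difference is the same. The exact permutation p was then 0.03125, the smallest possible for 6 pairs, and the adjusted p was 0.25. Among 8 tests a single result at that p adjusts to 0.25. The call was therefore not kept after adjustment, but 6 pairs could not have kept it, so this setting does not decide it.

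By treatment the same ratio differed by -0.43 (exact permutation p = 0.05, adjusted p = 0.133). It was -0.73 in A375, where the treatments did not overlap, and -0.13 in A375-BIR, where they did, and with 3 libraries against 3 the smallest exact p is 0.1.

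The log2 ratio of the chromosome 9 sum to the chromosome 19 sum was 1.40, 1.21 and 1.76 in A375 in DMSO, 1.24, 1.57 and 1.67 in A375 in dabrafenib, 1.54, 1.18 and 0.96 in A375-BIR in DMSO and 1.54, 1.63 and 2.28 in A375-BIR in dabrafenib. The chromosome 9 sum was thus the larger in all 12 libraries, and the groups overlapped. This came from miR-27 and did not hold for miR-23. For miR-27 alone the log2 ratio of chromosome 9 to chromosome 19 was 2.08 to 3.93 over the 12 libraries. For miR-23 alone it was below 0 in all 12, at -5.13 to -1.23. The lines differed by -0.04 (exact permutation p = 0.825, adjusted p = 0.955) and the treatments by 0.31 (exact permutation p = 0.14, adjusted p = 0.264). With miR-27 alone, the ratio of MIR27B to MIR27A differed by 0.67 between the lines (exact permutation p = 0.02, adjusted p = 0.0533). Between the treatments that ratio differed by 0.59 (exact permutation p = 0.03, adjusted p = 0.06). With miR-23 alone the difference between the lines was -0.60 (exact permutation p = 0.49). It rested on A375 in dabrafenib replicate 3, where MIR23B was at 0 and the log2 ratio was -5.13 against -1.84 and -1.99 in the other libraries of its group.

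miR-24 relative to the miR-23 and miR-27 counts of both clusters had log2 ratios of -1.51, -0.78 and -1.23 in A375 in DMSO and -1.21, -2.07 and -2.00 in A375 in dabrafenib. In A375-BIR they were -0.32, -0.46 and -0.83 in DMSO and -1.83, -1.37 and -1.99 in dabrafenib. The dabrafenib libraries of A375-BIR were all below its DMSO libraries, while those of A375 overlapped. Dabrafenib over DMSO differed by -0.89 (exact permutation p = 0.015, adjusted p = 0.06), with -0.59 in A375 and -1.19 in A375-BIR, and missed 0.05 after adjustment. Without A375 in dabrafenib replicate 1 it passed (-1.03, exact permutation p = 0.005, adjusted p = 0.02). The lines differed by -0.33 (exact permutation p = 0.165, adjusted p = 0.264).

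Within the chromosome 9 cluster the counts of MIR27B exceeded those of MIR23B by at least 11.1 times in all 12 libraries. The log2 ratio ran from 3.47 to 7.10, the highest being A375 in dabrafenib, replicate 3, with a MIR23B count of 0. It differed by 0.11 between the lines (exact permutation p = 0.93, adjusted p = 0.955) and by 0.10 between the treatments (exact permutation p = 0.955, adjusted p = 0.955), and without that library the values were -0.46 and -0.47.

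**Figure D4:**
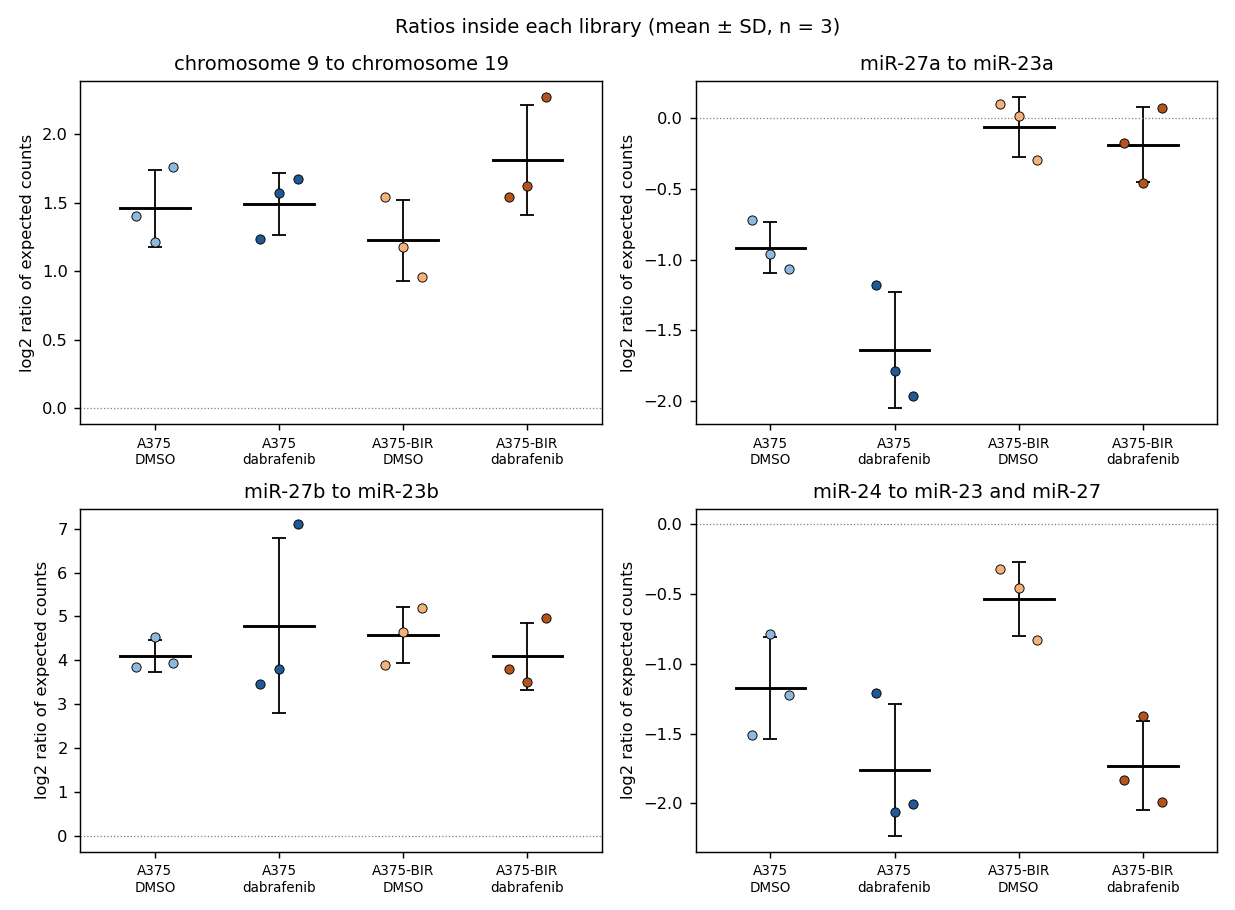
Log2 ratio of expected counts inside each library (pseudocount 0.5) for the 4 ratios, by line and treatment, with points for libraries and the mean ± SD of 3. For miR-27a to miR-23a every A375 library lies below every A375-BIR library, and for miR-24 to miR-23 and miR-27 the A375-BIR libraries in dabrafenib lie below those in DMSO.

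Over the 12 libraries, as a description that holds line and treatment together, log2 CPM of MIR27A followed MIR24-2 (Pearson r = 0.826) more closely than MIR23A (0.349), and MIR23A and MIR24-2 had r = 0.005. As MIR24-2 may hold 3p reads of either cluster, its r values do not describe the chromosome 19 transcript alone. MIR23B and MIR27B had r = 0.336. Among all other tested precursors, the chromosome 19 sum was most like MIR100 (0.877), MIR125B2 (0.874) and MIR146B (0.802), the chromosome 9 sum most like MIR146B (0.746), MIR10A (0.734) and MIR342 (0.724), and miR-24 most like MIR221 (0.951), MIR769 (0.941) and MIR1307 (0.935). The sums had r = 0.708 with each other for the clusters, and miR-24 had 0.582 with the chromosome 19 sum and 0.277 with the chromosome 9 sum. MIR221, for comparison, was at 22140 ± 2394 CPM (SD, n = 3) in A375 in DMSO, 13950 ± 2646 in A375 in dabrafenib, 46670 ± 12160 in A375-BIR in DMSO and 26830 ± 8222 in A375-BIR in dabrafenib, the same order of groups as miR-24.

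Other miRNAs were counted from lists. The list of 4 seed and locus relatives held MIR23C, MIR3074 and, from another cluster on chromosome 19, MIR181C and MIR181D. It did not hold miR-9985, which carries the miR-27 seed. Of the 4 only MIR181D was tested, and edgeR called it in 0 of the 6 comparisons, with 0 at an unadjusted p under 0.05. Of 17 other miRNAs that MYC is known to repress, 12 were tested, and over both treatments 9 were lower and 1, MIR146A, was higher in A375. Their median log2 fold change was -0.60, against -0.11, 34.3% lower and 25.7% higher among all 175 tested. In DMSO 7 were lower and 1 higher (median -0.78), against 30.3% lower, 16% higher and a median of -0.16 among all tested. In dabrafenib 3 of the 12 were lower and 1 higher (median -0.53), against 22.3% lower, 24% higher and a median of -0.03 among all tested. MIR34A (-1.63, SE 0.25, FDR = 6.35e-05 by edgeR over both treatments) and MIR30C1 (-1.26, SE 0.19, FDR = 4.56e-05) were among the lower ones. So were, over both treatments, MIR26A1 (-0.42, SE 0.16) and MIR26A2 (-0.42, SE 0.16), which had nearly equal values and were counted separately. Whether these precursors share reads was not tested. With dabrafenib 1 of the 12, MIR146A, was lower and 0 were higher in A375, against 6.86% lower and 18.3% higher among all tested. In A375-BIR 1, MIR150, was higher and 0 were lower, against 13.1% higher and 7.43% lower. In the difference in response MIR146A was lower, the one precursor called lower among all tested (0.571%).

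The miR-29 and miR-221 with miR-222 families, also repeated or clustered in the genome, served for comparison. Of the miR-29 precursors 2 of 4 were tested, MIR29A and MIR29B1, which are also on the list of miRNAs repressed by MYC. Both were lower in A375 over both treatments and in DMSO and 1 in dabrafenib, beside 34.3%, 30.3% and 22.3% of all tested precursors, with 0 called for the drug in either line or for the difference in response by edgeR. MIR221 and MIR222 were both lower in A375 in all 3 line comparisons and both lower in dabrafenib in each line, by medians of -0.64 in A375 and -0.65 in A375-BIR (0.13 and -0.04 among all tested, of which 6.86% and 7.43% were lower), and 0 were called for the difference in response.

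Of the 10 melanocyte and melanoma markers 7 had counts. Their sum, in CPM of the library total, was 27208 to 31566 (DMSO) and 15893 to 19077 (dabrafenib) for A375, against 1165 to 1906 (DMSO) and 1903 to 2815 (dabrafenib) for A375-BIR, and MIR146A was the most abundant. The pigment-lineage miRNA MIR211 had 0 to 9 counts per library, and MIR204 was at 1741 to 2045 CPM of the library total in DMSO and 3166 to 5860.4 in dabrafenib for A375, against 107.8 to 169 and 200.3 to 504 for A375-BIR. MIR204 was thus higher in the dabrafenib libraries of each line, without overlap, while in A375 the sum, which MIR146A led, was lower in them. MIR122, the liver marker, was at 0, and the blood, endothelial, epithelial and striated muscle lists each summed to at most 292 CPM. In A375-BIR, where MIR27B and MIR24-2 were called, the blood list (MIR142, MIR223 and MIR150) was at 24.9 to 32.6 CPM in DMSO. In dabrafenib it was at 199.6 to 292 CPM, without overlap. These values rest on few reads. Per A375-BIR library MIR150 had 1 to 3 counts in DMSO and 2 to 11 in dabrafenib. MIR142 had 0 to 2 and 1 to 7, and MIR223 0 to 1 and 0 to 2. For A375 the blood list was at 51.8 to 65.7 CPM in DMSO and 21.0 to 194 CPM in dabrafenib. MIR143 led the fibroblast and smooth muscle list, whose sum in CPM was 155 to 667 (DMSO) and 325 to 543 (dabrafenib) for A375, against 249 to 257 (DMSO) and 627 to 1113 (dabrafenib) for A375-BIR. The part of these differences in the members' values was not tested, and fewer cells of a type and less RNA per cell cannot be told apart in bulk libraries.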

How the data were processed

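Small RNA libraries (12, of 4 groups) were prepared with a Lexogen kit and sequenced by the authors, who trimmed the reads, removed rRNA and phiX reads and assigned the rest to Ensembl genes (hg38) with RSEM 1.2.25. The version of the annotation was not given in the sources used here. The authors deposited RSEM expected counts, one per precursor and library, without normalization. Of 1881 rows 1877 matched GENCODE v44 by identifier, and 977 had a count. Members and lists were chosen with earlier results of these data known. The genes named are the 6 members, the 3 precursors most like each sum by Pearson r of log2 CPM (prior count 2), and the lists.

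For testing, fractional counts were rounded. The software was edgeR 4.0.16 under R 4.3.3. Low counts were removed by filterByExpr with the 4 groups given (175 precursors kept, 173 rows with sums), and scaling was by TMM. The model held a mean for each of the 4 groups, fitted to the 12 libraries together. Its quasi-likelihood p was adjusted after Benjamini and Hochberg, with a threshold of 0.05. SE is the log2 fold change divided by the square root of F. Ratios were tested in Python 3.11.15. rRNA-like precursors have at least 18 consecutive bases of RefSeq's 45S pre-rRNA. Depth ran from 35070 to 122792 expected counts per library and was lower in every dabrafenib library than in any DMSO library. The common biological coefficient of variation was 21.6%.

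Deviations of same-numbered libraries from their group means correlated by 0.105, 0.217 and 0.303 between the lines in DMSO, so these were taken as pairs by a rule of over 0.1 in all 3. The other pairs of groups did not meet it. The alternatives were filters on low counts, scalings, DESeq2 1.42.0, the libraries compared only, a replicate block, removal of rRNA-like rows, unrounded counts, a pseudocount of 1, single-miRNA ratios and each library left out.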

Additional observations from a re-analysis of the deposited data

How the results depend on the processing

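Of the members' values under alternatives 598 of 655 kept direction and side of the threshold, of the sums' 330 of 393 and of the ratios', at an unadjusted p of 0.05, 97 of 116. By adjusted exact permutation p the ratio of MIR27A to MIR23A by line passed. With the block it was at the smallest exact permutation p possible for 6 pairs (0.03125, adjusted p = 0.25). A single result at that p among 8 tests cannot pass, so the call lost there was not decided. The ratio of miR-24 by treatment gained its call without A375 in dabrafenib replicate 1 (exact permutation, adjusted p = 0.02). The lower levels of MIR27A, MIR24-2, MIR27B and the 3 sums in A375 over both treatments kept direction and call in all alternatives. Values that turned follow as log2 fold changes, with counts of calls that moved by over 1.5 times, and the cause was not tested. The count of sums called between the lines in dabrafenib stayed within that, at 2 or 3, with miR-23a with miR-27a the one lost. With a filter of 1 CPM in 3 libraries, 1 member and 1 sum were called for dabrafenib in A375 (MIR23B -0.42, MIR27B -0.31, MIR23A -0.18, miR-23a with miR-27a -0.24, miR-23b with miR-27b -0.18) and 1 and 1 in A375-BIR (MIR27A -0.35, MIR23A -0.285, miR-23a with miR-27a -0.17), and the difference in response of miR-23a with miR-27a was -0.071. With no filter, 1 sum was called between the lines in DMSO, 1 member and 1 sum for dabrafenib in A375 (MIR23B -0.31, MIR27B -0.19, MIR23A -0.047, miR-23a with miR-27a -0.27, miR-23b with miR-27b -0.21) and 1 and 1 in A375-BIR (MIR27A -0.32, MIR23A -0.25, miR-23a with miR-27a -0.27). With DESeq2's size factors, 1 sum was called between the lines in DMSO, MIR23A between the lines in dabrafenib had 0.016, dabrafenib in A375 gave MIR23B -0.095 and miR-23a with miR-27a -0.035, in A375-BIR MIR27A -0.064 and miR-23a with miR-27a -0.021, and the difference of the latter was -0.014. With total counts, 1 member and 1 sum were called for dabrafenib in A375 (MIR23B -0.40, MIR27B -0.27, MIR23A -0.125, miR-23a with miR-27a -0.33, miR-23b with miR-27b -0.285), MIR27A in A375-BIR had -0.027, and the difference was -0.19 for MIR24-2, -0.175 for MIR23A, -0.35 for miR-23a with miR-27a and -0.19 for miR-24. With DESeq2's Wald test, 1 sum was called between the lines in DMSO and 1 member for dabrafenib in A375-BIR, MIR23A between the lines in dabrafenib had 0.015, dabrafenib in A375 gave MIR23B -0.13 and miR-23a with miR-27a -0.035, in A375-BIR MIR27A -0.058 and miR-23a with miR-27a -0.024, and the difference of the latter was -0.011. With the replicate number as a block over 12 libraries, 1 member and 1 sum were called for dabrafenib in A375-BIR, where MIR24-2 (-0.65, edgeR FDR = 0.0535) and miR-24 (-0.62, edgeR FDR = 0.0762) missed the threshold, the difference of miR-23a with miR-27a was -0.001, and the treatment difference of miR-24 to miR-23 and miR-27 was -0.89 (exact permutation p = 0.0625). Without 4 rRNA-like precursors, 1 member and 1 sum were called for dabrafenib in A375-BIR and that difference was -0.005. Without all 17, MIR23B for dabrafenib in A375 had -0.027 and that difference was -0.039. With the libraries compared only, 0 members and 0 sums were called for dabrafenib in A375-BIR, and in A375 MIR23B had -0.068 and miR-23a with miR-27a -0.033. With a pseudocount of 1, the ratio of MIR27B to MIR23B differed by -0.06 by line and -0.07 by treatment, and with miR-27 alone the chromosome 9 to chromosome 19 ratio differed by 0.67 by line and 0.59 by treatment. With each library left out in turn, 0 to 2 members and 0 to 2 sums were called for dabrafenib in A375-BIR and 1 to 2 sums between the lines in DMSO. Ranges that crossed 0 were -0.15 to 0.39 for MIR23B between the lines in DMSO, -0.17 to 0.089 for MIR23A between the lines in dabrafenib, -0.29 to 0.615 for MIR23B for dabrafenib in A375, and, in A375-BIR, -0.13 to 0.26 for MIR27A, -0.048 to 0.35 for MIR23A and -0.053 to 0.24 for miR-23a with miR-27a. The difference in response ran from -0.13 to 0.17 for miR-23a with miR-27a and from -0.034 to 0.42 for MIR23A. The ratios ran from -0.12 to 0.072 (chromosome 9 to 19 by line), -0.54 to -0.35 (MIR27A to MIR23A by treatment), -0.47 to -0.24 (miR-24 by line), -0.46 to 0.44 (MIR27B to MIR23B by line) and -0.47 to 0.43 (by treatment). Removal of all 17 rRNA-like precursors, the block fitted to the DMSO libraries and sums scaled by the factors of the precursor table were chosen after seeing the data. Between the lines in DMSO, that block changed no call other than those of MIR27B and miR-23b with miR-27b. Counts were low for MIR23B, at most 16.25 per library, and for MIR27A in A375 in dabrafenib, 4 to 9.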
